A study of Mus musculus with 8 samples.

Results

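The receptors Notch1, Notch2 and Notch3, the ligands Dll1, Dll3, Jag1 and Jag2, and the transcription factors Hes1, Hes6 and Hey1 were followed in Merkel cells and in epidermal cells of newborn mouse skin. These 10 genes were taken by symbol from 24538 gene rows, and all 10 were among the 15151 genes that passed the filter on low counts. The libraries came from mice at postnatal day 0 that carried Atoh1-GFP, a green fluorescent protein reporter of the Merkel cell factor Atoh1, so every group shares that allele. The labels give 4 groups of 2 libraries: Merkel cells and IFE cells from the paw, and the same 2 cell types from back skin. They name no treatment for any group. Skin was digested with collagenase and trypsin, and Merkel cells were sorted by GFP and EpCAM in the absence of Sca1. IFE cells, an abbreviation that the labels leave unexplained, were sorted by EpCAM and Sca1 in the absence of GFP. The RNA was amplified before sequencing. The labels do not say whether libraries came from separate or pooled animals, so the p-values given here reflect only the spread among these 8 libraries, which may be technical.

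Notch receptors are single-pass membrane proteins that are activated by Delta-like and Jagged ligands on neighbouring cells. Cleavage by ADAM proteases and then gamma-secretase frees the intracellular domain, which joins the DNA-binding protein RBPJ and switches on repressors of the Hes and Hey families. In mouse epidermis the pathway drives keratinocytes from the basal into the suprabasal layers and limits how many Merkel cells form. Merkel cells are touch receptors of the epidermis and are made from epidermal progenitors.

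Libraries held 11139306 to 26195076 counts in genes. The labelled cell types fit their markers at both sites: 8 of 8 Merkel markers, of which Atoh1 belongs to the sort, were higher in Merkel than in IFE cells, and 7 of 7 basal keratinocyte markers were lower. Summed over the list, Merkel markers reached 2880.1 to 4041 CPM (counts brought to one common depth by TMM scaling) in the 4 Merkel libraries, against 8.96 to 18.2 CPM in the 4 IFE libraries. Basal keratinocyte markers summed to 1073 to 3451 CPM in Merkel libraries, against 24059.5 to 40931 CPM in IFE libraries. Suprabasal markers overlapped, with 519 to 5891 CPM in Merkel libraries, against 5443 to 12401 CPM in IFE libraries. Immune markers summed to 0.553 to 7.81 CPM in Merkel libraries, against 25.3 to 926 CPM in IFE libraries. Fibroblast markers overlapped, with 77.9 to 170.5 CPM in Merkel libraries, against 92.6 to 437 CPM in IFE libraries. Within that list Col1a2 was higher in back Merkel libraries (165 and 74 CPM) than in back IFE libraries (21.7 and 28.9 CPM). Col3a1 ran the other way there, with 0.228 and 0.195 CPM against 8.09 and 195 CPM. One library went against its label. Over 28 Hox genes, which mark position along the body, back IFE library 2 correlated with paw IFE libraries 1 and 2 at r = 0.753 and 0.883, and with back IFE library 1 at r = -0.0752 (across genes, which are not independent). It is called the library labelled back IFE 2 from here on, and the adjusted p of each member at the back is given with it and without it. The paw Merkel pair correlated at r = 0.826 over all genes tested, below the other 3 replicate pairs, and the suprabasal sum was 5891 CPM in paw Merkel 1 and 519 CPM in paw Merkel 2. Reads of these libraries come from sorted pools of cells, in which fewer cells of a type and less RNA per cell cannot be told apart.

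**Figure D1:**
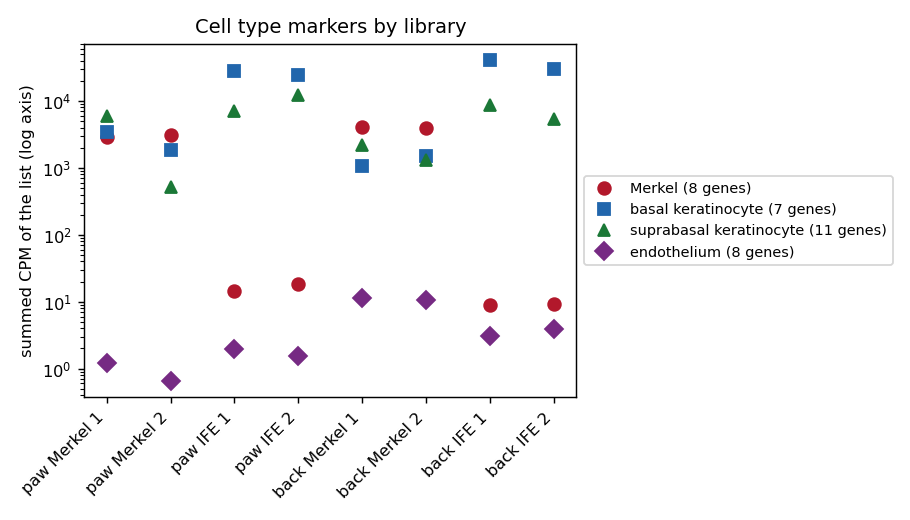
Summed CPM of marker lists in each library (log axis), with Merkel groups left of IFE groups of the same site; each point is 1 library. Merkel markers sit at 2880.1 CPM or more in all 4 Merkel libraries and at 18.2 CPM or less in all 4 IFE libraries, while the endothelial sum stays between 0.645 and 11.5 CPM.

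The sequences around the start sites of 4 members are shown because Notch1 and Jag1 were a receptor and a ligand that passed as lower in Merkel cells at both sites, and Hes6 and Dll3 were the members that passed as higher over both sites together. They are RefSeq windows of GRCm38.p6 (mm10) from 250 bases before to 50 bases after a start, read 5′ to 3′ on the strand of the gene, which is the minus strand for all 4. Capitals mark the E-box CAGCTG, a sequence that basic helix-loop-helix activators such as Atoh1 can bind, and the N-box CACNAG or its reverse complement CTNGTG, a sequence that Hes repressors can bind. Both strands were searched, and CAGCTG is its own reverse complement.
Notch1, chr2:26503773-26504072: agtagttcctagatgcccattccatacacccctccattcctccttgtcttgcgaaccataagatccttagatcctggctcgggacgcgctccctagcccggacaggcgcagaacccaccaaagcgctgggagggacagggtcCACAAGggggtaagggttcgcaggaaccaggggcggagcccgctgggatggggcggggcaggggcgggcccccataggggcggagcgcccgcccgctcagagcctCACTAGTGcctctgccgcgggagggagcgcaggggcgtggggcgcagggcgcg
Jag1, chr2:137116471-137116770: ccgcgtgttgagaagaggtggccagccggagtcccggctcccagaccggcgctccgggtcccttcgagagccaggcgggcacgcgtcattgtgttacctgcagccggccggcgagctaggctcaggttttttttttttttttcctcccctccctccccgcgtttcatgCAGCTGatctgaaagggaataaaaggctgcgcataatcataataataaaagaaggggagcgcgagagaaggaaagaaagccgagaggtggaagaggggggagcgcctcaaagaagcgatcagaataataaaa
Dll3, chr7:28301736-28302035: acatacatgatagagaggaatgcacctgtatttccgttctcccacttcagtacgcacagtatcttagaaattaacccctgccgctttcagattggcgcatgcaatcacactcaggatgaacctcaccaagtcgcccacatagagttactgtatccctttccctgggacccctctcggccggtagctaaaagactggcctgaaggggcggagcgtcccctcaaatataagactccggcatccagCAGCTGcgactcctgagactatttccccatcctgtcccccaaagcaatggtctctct
Hes6, start 1, chr1:91413989-91414288: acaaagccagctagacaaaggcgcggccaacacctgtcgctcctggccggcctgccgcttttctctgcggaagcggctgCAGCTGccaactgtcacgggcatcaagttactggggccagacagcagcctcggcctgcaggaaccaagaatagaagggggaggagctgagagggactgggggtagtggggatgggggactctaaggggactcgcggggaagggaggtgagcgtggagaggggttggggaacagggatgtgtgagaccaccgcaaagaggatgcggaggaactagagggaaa
Hes6, start 2, chr1:91413173-91413472: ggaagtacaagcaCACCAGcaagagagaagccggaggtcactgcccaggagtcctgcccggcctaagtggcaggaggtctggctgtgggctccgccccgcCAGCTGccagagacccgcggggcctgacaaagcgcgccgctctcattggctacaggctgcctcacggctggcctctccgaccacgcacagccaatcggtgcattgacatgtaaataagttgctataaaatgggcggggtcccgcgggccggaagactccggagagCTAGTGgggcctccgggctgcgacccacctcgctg
Of the 10 members, 8 were matched in the promoter table, with 10 windows in all. Hes1 and Hey1 had no window there, so they were not searched for any of these motifs. The E-box CAGCTG stood in 5 of the 10 windows, those of Dll3, Jag1, both starts of Hes6 and 1 of the 2 starts of Dll1, and in 16.3% of all 32851 windows in the table. The N-box stood in 5 of the 10 windows, those of Notch1, Notch2, Notch3, 1 start of Dll1 and 1 start of Hes6, and in 42.5% of all windows. In Notch1 the last 2 of its 3 matches overlap, on opposite strands. The core letters of an RBPJ site, TGGGAA or TTCCCA, stood in 0 of the 10 windows and in 25.6% of all windows. These are matches of letters only, and 2 windows can belong to the same gene.

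Across the 10 members, Merkel cells had less RNA of the receptors Notch1 and Notch2 and of the ligand Jag1 than IFE cells of the same site, and more of Hes6. These 4 genes passed the test in the paw and again at the back, by edgeR's quasi-likelihood F test with p-values adjusted over all 15151 genes (Benjamini-Hochberg) at a threshold of 0.05. That test is behind every call and adjusted p given here unless another is named. In the paw, 1 member was higher and 3 were lower in Merkel cells, where 6.21% of all genes passed (4.28% higher and 1.93% lower). At the back, 1 member was again higher and 3 were lower, where 15.4% of all genes passed (7.99% higher and 7.45% lower). Over both sites together, 2 members were higher (Hes6 and Dll3) and 6 were lower (Notch1, Notch2, Notch3, Jag1, Jag2 and Hey1), where 23.9% of all genes passed (12.5% higher and 11.3% lower). Dll1 and Hes1 did not pass in any of these comparisons, Hes1 with an adjusted p of 0.0501 over both sites. The median log2 fold change of the 10 members, Merkel over IFE, was -2.14 in the paw, -1.40 at the back and -1.80 over both sites, against -0.04, -0.06 and -0.09 for all genes tested. Without the library labelled back IFE 2, 1 member passed at the back (Notch1) and 5 over both sites. The basal keratinocyte sum given above moved in the same direction as Notch1, Notch2 and Jag1, and its part in their differences was not tested.

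**Figure D2:**
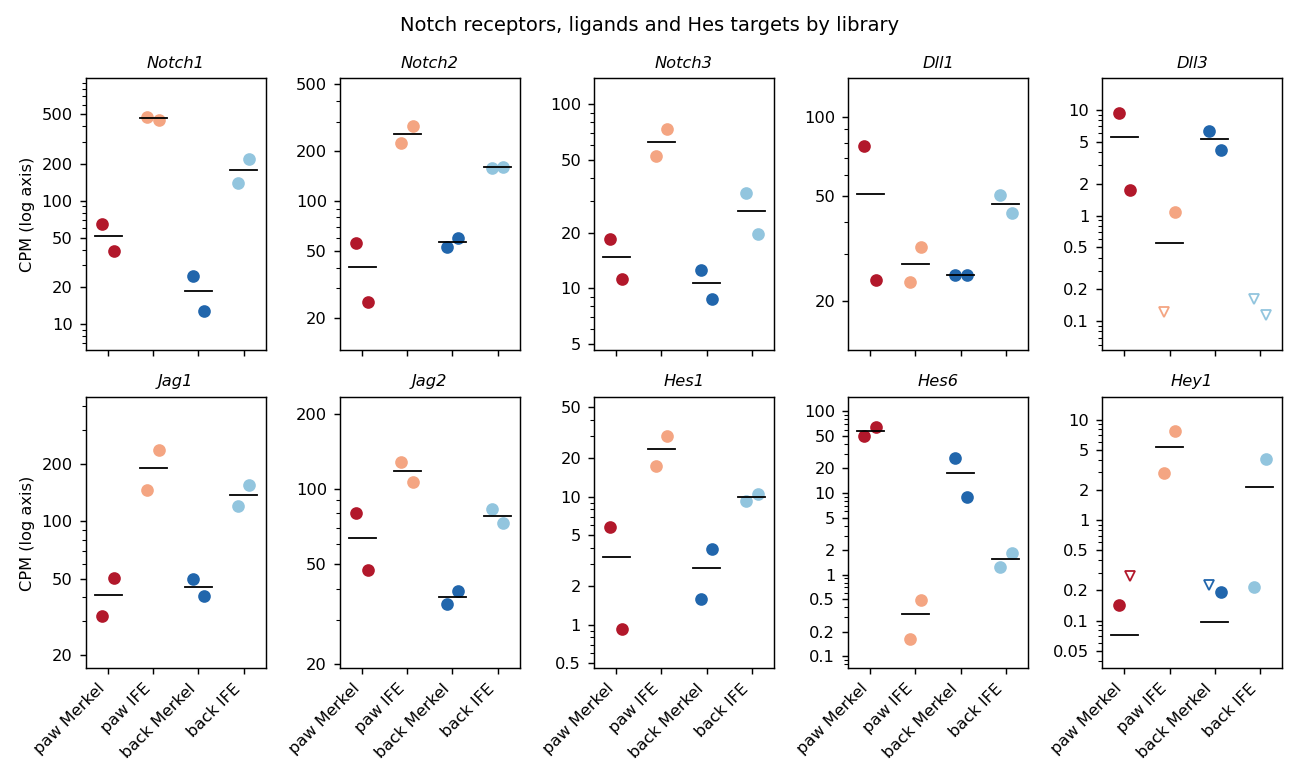
CPM of the 10 members in each library (log axis, with its own range for each gene); points are libraries, lines are means of 2 libraries, and open triangles mark libraries at 0, drawn at the level that 3 counts would give. Notch1 lies between 12.7 and 64.2 CPM in the 4 Merkel libraries and between 139.6 and 479.6 CPM in the 4 IFE libraries, and Hes6 runs the other way.

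Notch1, the main receptor of keratinocytes, lies on chromosome 2 at 26457903 to 26516663 (minus strand; GRCm38, GENCODE vM21, as for all gene positions here). It had 64.2 and 38.8 CPM in paw Merkel libraries 1 and 2, against 479.6 and 452 CPM in paw IFE libraries 1 and 2. It had 24.7 and 12.7 CPM in back Merkel libraries 1 and 2, against 139.6 and 218 CPM in back IFE libraries 1 and 2. All 4 Merkel libraries lay below all 4 IFE libraries. Within each cell type both paw libraries lay above both libraries labelled back, although neither difference between sites passed. Notch1 fell by 3.17 on the log2 scale in paw Merkel cells (SE 0.45, adjusted p = 0.00147) and by 3.25 in back Merkel cells (SE 0.45, adjusted p = 0.000756). Of its exonic bases 7.5% overlap a gene on the opposite strand. It passed at both sites with each of the 8 libraries left out in turn and under all 8 other settings tried, and at the back it was -2.9 without the library labelled back IFE 2 (adjusted p = 0.00102).

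Notch2, a second receptor made in epidermis (chromosome 3, 98013527 to 98150361, plus strand), had 55.9 and 24.8 CPM in paw Merkel libraries, against 222 and 283 CPM in paw IFE libraries. It had 52.9 and 60.5 CPM in back Merkel libraries, against 159 and 161 CPM in back IFE libraries. The back libraries of each cell type were close together; paw Merkel 1 lay beside the back Merkel libraries and paw Merkel 2 lay below them. Notch2 fell by 2.64 on the log2 scale in paw Merkel cells (SE 0.43, adjusted p = 0.00404), which held with every library left out in turn. At the back it fell by 1.5 (SE 0.42, adjusted p = 0.0329). That call was lost without back Merkel 1, back Merkel 2, back IFE 1 or the library labelled back IFE 2, at adjusted p = 0.142, 0.123, 0.0818 and 0.0798, although the log2 fold change stayed between -1.6 and -1.43. It was also lost with limma on FPKM (adjusted p = 0.0896 and 0.0992 with pseudocounts of 1 and 0.1).

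Notch3, a receptor best known from mural cells of blood vessels (chromosome 17, 32120820 to 32166852, minus strand), had 18.6 and 11.2 CPM in paw Merkel libraries, against 52.4 and 73.2 CPM in paw IFE libraries. It had 12.6 and 8.79 CPM in back Merkel libraries, against 33.0 and 19.8 CPM in back IFE libraries. The 4 Merkel libraries lay below the 4 IFE libraries, with the nearest pair at 18.6 and 19.8 CPM. The log2 fold change was -2.07 in the paw (SE 0.61, adjusted p = 0.0726) and -1.30 at the back (SE 0.60, adjusted p = 0.171), so neither site passed alone. Without the library labelled back IFE 2 it was -1.62 at the back (adjusted p = 0.208). Over both sites Notch3 fell by 1.69 in Merkel cells (SE 0.43, adjusted p = 0.0153), which was lost without paw IFE 2, back Merkel 2 or back IFE 1, at adjusted p = 0.096, 0.0505 and 0.0568, and with limma on FPKM plus 0.1 (adjusted p = 0.0778). The summed CPM of 7 mural cell markers was 10.4 to 21.5 in Merkel libraries, against 45.1 to 185 in IFE libraries, and Cspg4 alone accounted for 41.6 to 179 CPM of the sum in IFE libraries. The list did not move as a whole. Acta2 ran with Cspg4, at 0 to 0.192 CPM in Merkel libraries, against 1.57 to 7.56 CPM in IFE libraries. Myh11 ran the other way at the back, with 3.5 and 2.25 CPM in back Merkel libraries, against 0 and 0.496 CPM in back IFE libraries. Pdgfrb and Rgs5 were at 0 in both paw IFE libraries and had 1.29 and 3.23 CPM in paw Merkel 2, where Abcc9 had 5.62 CPM, and Kcnj8 was at 0 in all 8 libraries. The part of mural cells in the Notch3 difference was not tested.

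On the FPKM scale, which is per transcript length and so allows levels of different genes to be set side by side, the 4 Notch receptors summed to 20.9 and 11.8 FPKM in paw Merkel libraries, against 100.1 and 113 FPKM in paw IFE libraries. At the back the receptor sum was 15.3 and 19.8 FPKM in Merkel libraries, against 46.2 and 55.0 FPKM in IFE libraries. The sum thus lay lower in all 4 Merkel libraries. FPKM and CPM did not always run in proportion between libraries. Notch3 had 18.6 and 11.2 CPM in paw Merkel libraries 1 and 2, but 2.75 and 0.177 FPKM. The ligands Dll1, Dll3, Dll4, Jag1 and Jag2 together came to 79.0 and 51.3 FPKM in paw Merkel libraries, against 82.4 and 100.3 FPKM in paw IFE libraries. At the back the ligand sum was 45.1 and 53.0 FPKM in Merkel libraries, against 77.0 and 77.6 FPKM in IFE libraries. The ligand sums of the 2 cell types were therefore nearer to each other than the receptor sums, and the ligand sum exceeded the receptor sum in all 4 Merkel libraries and in both back IFE libraries; these sums carry no test. Within the receptor sum, Notch1 made up 44.1% and 53.6% in paw Merkel libraries, against 65.9% and 58.6% in paw IFE libraries. It made up 24.0% and 7.41% in back Merkel libraries, against 43.0% and 58.3% in back IFE libraries. Notch4, a receptor best known from endothelium and not one of the 10 members, made up 10.3% to 43.9% of the receptor sum in Merkel libraries, against 0 to 0.925% in IFE libraries.

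**Figure D3:**
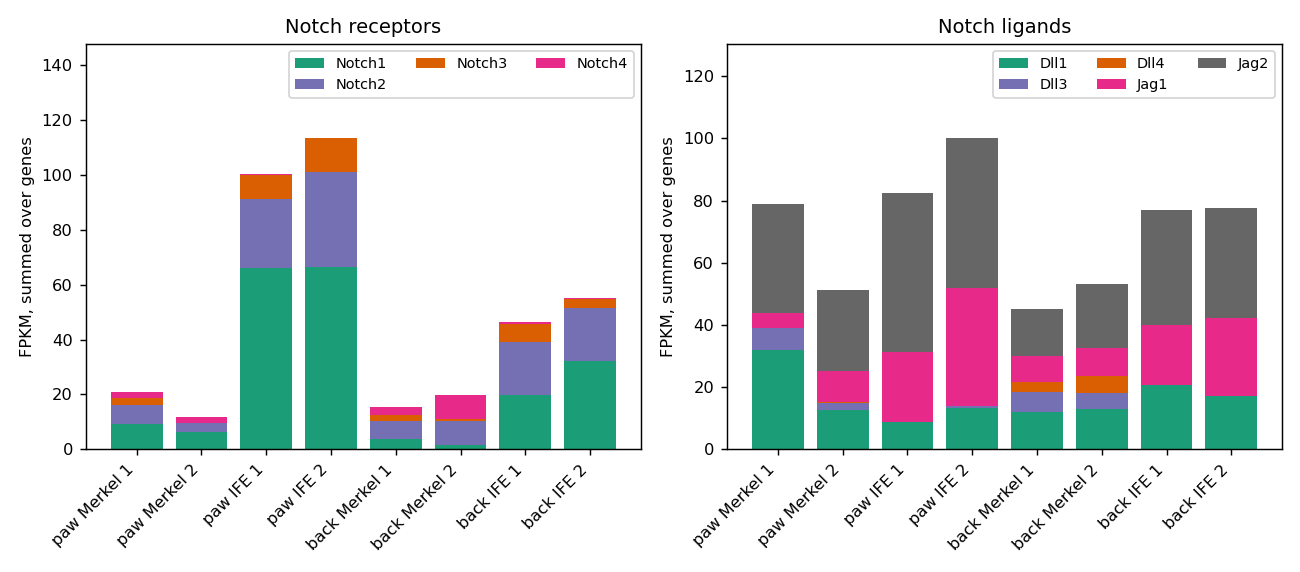
Summed FPKM of Notch receptors and of Notch ligands in each library, stacked by gene, with Merkel libraries left of IFE libraries of the same site. Receptors sum to 11.8 to 20.9 FPKM in Merkel libraries and 46.2 to 113 FPKM in IFE libraries, whereas ligands sum to 45.1 to 79.0 FPKM in Merkel libraries and 77.0 to 100.3 FPKM in IFE libraries.

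Among the ligands, Jag1 (chromosome 2, 137081456 to 137116644, minus strand) had 32.0 and 50.4 CPM in paw Merkel libraries, against 145 and 236 CPM in paw IFE libraries. It had 49.7 and 40.5 CPM in back Merkel libraries, against 119.6 and 155 CPM in back IFE libraries. The Merkel libraries of both sites lay in one range of 32.0 to 50.4 CPM, below every IFE library. Jag1 fell by 2.21 on the log2 scale in paw Merkel cells (SE 0.42, adjusted p = 0.00977), which was lost without paw IFE 2 (-1.82, adjusted p = 0.0883) and with limma on FPKM (adjusted p = 0.0708 and 0.0722 with pseudocounts of 1 and 0.1). At the back it fell by 1.61 (SE 0.41, adjusted p = 0.0229), which was lost without back Merkel 1, back Merkel 2 or the library labelled back IFE 2, at adjusted p = 0.0671, 0.144 and 0.105, and with limma on FPKM (adjusted p = 0.0993 and 0.103).

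Jag2, the other Jagged ligand (chromosome 12, 112907819 to 112929776, minus strand), differed less. It had 79.9 and 47.4 CPM in paw Merkel libraries, against 128 and 107 CPM in paw IFE libraries. It had 34.8 and 39.0 CPM in back Merkel libraries, against 83 and 73.4 CPM in back IFE libraries. Within each site the cell types did not overlap, but paw Merkel 1 lay above back IFE 2. The log2 fold change was -0.88 in the paw (SE 0.41, adjusted p = 0.244) and -1.08 at the back (SE 0.41, adjusted p = 0.0991), where it was -1.17 without the library labelled back IFE 2 (adjusted p = 0.207). Over both sites Jag2 fell by 0.98 (SE 0.29, adjusted p = 0.0297), a call that held in 1 of the 8 fits with a library left out, the one without paw Merkel 1; the adjusted p in the other fits was 0.0567 to 0.13.

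Dll1, a Delta-like ligand that activates receptors on neighbouring cells (chromosome 17, 15367354 to 15376872, minus strand), had 77.8 and 24.0 CPM in paw Merkel libraries, against 23.5 and 31.9 CPM in paw IFE libraries. It had 25.1 CPM in both back Merkel libraries, against 50.4 and 43.0 CPM in back IFE libraries. Paw Merkel 1 stood above all other libraries, and paw Merkel 2 lay within the range of the paw IFE libraries. The log2 fold change was 0.88 in the paw (SE 0.60, adjusted p = 0.445) and turned to -0.23 without paw Merkel 1; at the back it was -0.90 (SE 0.60, adjusted p = 0.339), and -1.01 without the library labelled back IFE 2 (adjusted p = 0.468). Of the exonic bases of Dll1, 20.5% overlap a gene on the opposite strand, and the strand setting of the counting is not given in the sources used here.

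Dll3, a divergent Delta-like protein that in mouse does not activate receptors on neighbouring cells and can dampen Notch signalling within its own cell (chromosome 7, 28293553 to 28302238, minus strand), had 9.39 and 1.75 CPM in paw Merkel libraries, against 0 and 1.09 CPM in paw IFE libraries. It had 6.39 and 4.20 CPM in back Merkel libraries, against 0 CPM in both back IFE libraries. Counts were thus seen in all 4 Merkel libraries and in 1 of 4 IFE libraries, and paw Merkel 2 was close to paw IFE 2. In the paw the log2 fold change was 3.36 (SE 2.09, adjusted p = 0.404). At the back the level was at least 78.8-fold higher in Merkel cells, against a floor of 3 counts over the back IFE group, with adjusted p = 0.0534. That comparison passed under 5 of the 8 other settings (DESeq2 adjusted p = 0.000749, and 0.00661 without a filter on low counts) and in 3 of 8 fits with a library left out, and its adjusted p was 0.164 without the library labelled back IFE 2. Over both sites Dll3 passed (adjusted p = 0.026), and the call was lost without paw IFE 1, back IFE 1 or the library labelled back IFE 2, at adjusted p = 0.0562, 0.0568 and 0.0661. Floors and counting intervals cover counting error only, since amplified reads are not independent molecules.

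**Figure D4:**
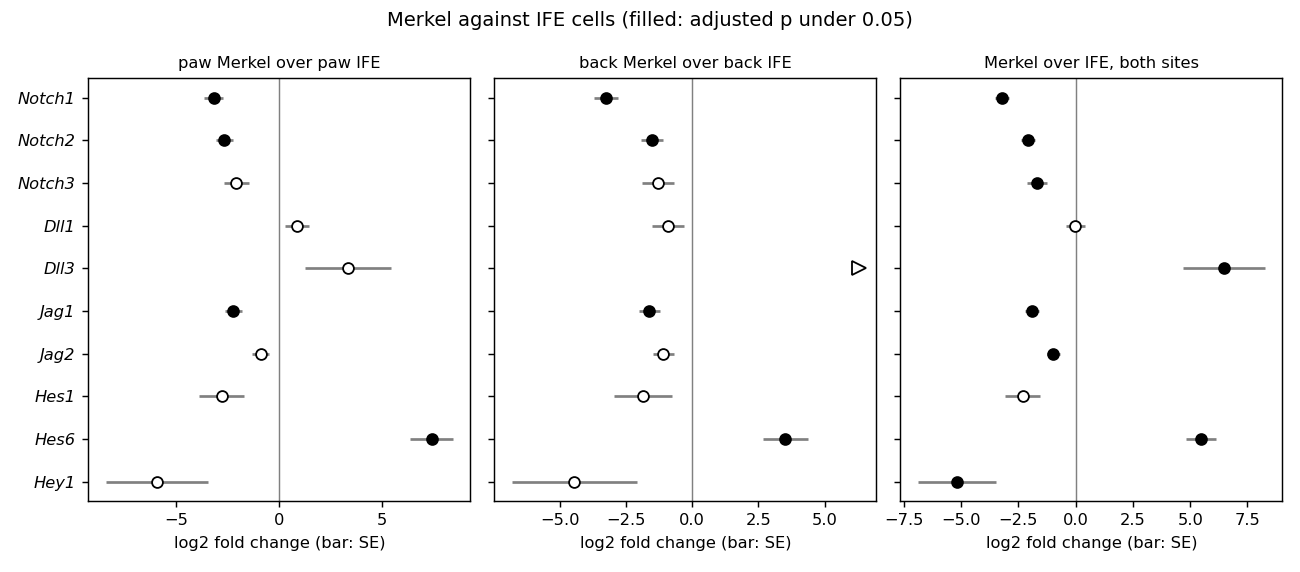
Log2 fold change of each member, Merkel over IFE, in the paw, at the back and over both sites (each panel has its own axis range); bars are the SE of the edgeR model and filled points have an adjusted p under 0.05. The triangle for Dll3 at the back is a lower bound of 6.30, because both back IFE libraries had 0 counts. The point for Dll3 over both sites includes that group, so its fitted value depends on the model's prior. Notch1 is near -3 in all panels and Hes6 lies between 3.52 and 7.43.

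Hes6 rose in Merkel cells at both sites. It is an atypical Hes factor, which in mouse neural progenitors opposes Hes1 and promotes differentiation, and it lies on chromosome 1 at 91411483 to 91414038 (minus strand). It had 49.5 and 64.9 CPM in paw Merkel libraries, against 0.163 and 0.493 CPM in paw IFE libraries. It had 26.5 and 8.99 CPM in back Merkel libraries, against 1.25 and 1.83 CPM in back IFE libraries. All 4 Merkel libraries lay above all 4 IFE libraries. Both paw Merkel libraries were above both back Merkel libraries, and both paw IFE libraries were below both libraries labelled back IFE. Neither of these differences between sites passed. Hes6 rose by 7.43 on the log2 scale in paw Merkel cells (SE 1.04, adjusted p = 0.00141) and by 3.52 in back Merkel cells (SE 0.86, adjusted p = 0.0182). The paw call held with every library left out in turn. The call at the back was lost without back Merkel 1, back IFE 1 or the library labelled back IFE 2, with log2 fold changes of 2.52, 3.27 and 3.82 and adjusted p = 0.1, 0.0938 and 0.0552, and with limma on log2 CPM (adjusted p = 0.0505). The windows of both Hes6 starts printed above hold the E-box, and that of start 2 also holds the N-box. The E-box also stood in windows of Dll3, Dll1 and Jag1, of which Jag1 was lower in Merkel cells. The part of these motifs in the levels was not tested.

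Hes1, the classical repressor target of Notch (chromosome 16, 30064384 to 30067796, plus strand), ran in the other direction. It had 5.85 and 0.922 CPM in paw Merkel libraries, against 17.4 and 29.6 CPM in paw IFE libraries. It had 1.6 and 3.91 CPM in back Merkel libraries, against 9.28 and 10.6 CPM in back IFE libraries. The 4 Merkel libraries lay below the 4 IFE libraries, and paw Merkel 1 stood well above paw Merkel 2. The log2 fold change was -2.78 in the paw (SE 1.11, adjusted p = 0.178), -1.85 at the back (SE 1.08, adjusted p = 0.271) and -2.32 over both sites (SE 0.77, adjusted p = 0.0501). The comparison over both sites passed under 6 of the 8 other settings, with DESeq2 at adjusted p = 0.00355. Without the library labelled back IFE 2 the value at the back was -1.76 (adjusted p = 0.471). Without paw Merkel 1 the value over both sites was -3.28 (adjusted p = 0.00902) and that in the paw was -4.68 (adjusted p = 0.0357). On the FPKM scale the ratio of Hes6 to Hes1 was 15.9 and 122 in paw Merkel libraries, against 0.0134 and 0.0279 in paw IFE libraries. The ratio was 23.9 and 4.14 in back Merkel libraries, against 0.247 and 0.243 in back IFE libraries. Hes6 thus exceeded Hes1 in each Merkel library and was below it in each IFE library.

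Hey1, a related repressor target (chromosome 3, 8663359 to 8667256, minus strand), was near 0 in Merkel cells. It had 0.144 and 0 CPM in paw Merkel libraries, against 2.97 and 7.75 CPM in paw IFE libraries. It had 0 and 0.195 CPM in back Merkel libraries, against 0.217 and 4.08 CPM in back IFE libraries. The Merkel groups held 3 counts in the paw and 2 at the back, against 230 and 111 in the IFE groups of the same sites, and back IFE 1 was about as low as back Merkel 2. The paw IFE level was 54.3 times that of paw Merkel cells (95% counting interval 18.3 to 265), with adjusted p = 0.195 in the model, and the back IFE level was 29.1 times that of back Merkel cells (7.86 to 243), with adjusted p = 0.231. The library labelled back IFE 2 held 107 of the 111 back IFE counts; without it the log2 fold change at the back was -1.16 (adjusted p = 0.86), against -4.44 with it. Hey1 passed over both sites (adjusted p = 0.0478), and in 2 of 8 fits with a library left out, those without paw Merkel 1 or back IFE 1. Over both sites the adjusted p was 0.221 without the library labelled back IFE 2.

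Set in order by mean FPKM, the leading members of paw Merkel cells were Hes6 (88.1), Jag2 (30.5), Dll1 (22.3) and Notch1 (7.79), and those of paw IFE cells were Notch1 (66.2), Jag2 (49.6), Jag1 (30.3) and Notch2 (29.9). In paw Merkel cells the ranges of Jag2 and Dll1 overlapped, and from Notch1 down to Notch3 each gene overlapped the next in order. In paw IFE cells Jag1 and Notch2 overlapped. Back Merkel cells kept the top 3 of paw Merkel cells, with Hes6 (26.9), Jag2 (17.8) and Dll1 (12.5), of which Hes6 and Jag2 overlapped. Back IFE cells were led by Jag2 (36.1), Notch1 (26.0), Jag1 (22.3) and Notch2 (19.3), and the last 3 overlapped in turn, as did Notch2 with Dll1 (18.9). Hey1 came last in both Merkel groups and Dll3 in both IFE groups, although in paw IFE cells the ranges of Dll3 and Hes6 overlapped.

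Between skin sites, none of the 10 members passed. Paw Merkel cells against back Merkel cells gave 0 members called, where 0.185% of all genes passed (0.178% higher and 0.0066% lower), and 1 member had an unadjusted p under 0.05. That member was Notch1, with 1.46 on the log2 scale, paw over back (adjusted p = 0.25), and it passed when no filter on low counts was used (adjusted p = 0.0231). Paw IFE cells against back IFE cells gave 0 members and 0 of all genes (0%), with Notch1, Dll3 and Hes6 at an unadjusted p under 0.05. Notch1 was 1.38 and Hes6 was -2.23 on the log2 scale, paw over back, both with adjusted p = 1. The difference between sites in the Merkel-IFE difference, tested as an interaction, also called 0 members and 0 of all genes (0%). Hes6 alone had an unadjusted p under 0.05, with an interaction of 3.92 on the log2 scale (SE 1.17, adjusted p = 0.385; DESeq2 gave 3.91 and adjusted p = 0.0297). Over all 15151 genes, unadjusted p was under 0.05 for 1550 genes between Merkel sites, 643 genes between IFE sites and 1365 genes in the interaction, and DESeq2 called 625, 91 and 301. Without the library labelled back IFE 2, edgeR called 67 genes between IFE sites and 41 in the interaction, none of them a member.

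The list of other Notch pathway genes held 56 genes, of which 51 passed the filter; Dlk1, Hes2, Hes3, Hes5 and Hey2 did not. In the paw 4 of the 51 were higher and 0 lower in Merkel cells, where 6.21% of all genes passed. At the back 7 were higher and 3 lower, where 15.4% passed, and over both sites 8 were higher and 5 lower, where 23.9% passed. These shares of the list are near those of all genes. The median log2 fold change of the 51 genes was 0.25, 0.14 and 0.24 in the 3 comparisons, against -0.04, -0.06 and -0.09 for all genes tested. The 4 that passed in the paw, Mfng, Dner, Notch4 and Dtx1, also passed at the back. Between sites and in the interaction 0 of the 51 passed, with 3, 4 and 5 genes at an unadjusted p under 0.05. Leaving out a library changed these counts: 1 gene, Mfng, passed in the paw without paw IFE 1 or paw IFE 2. At the back 5 passed without back Merkel 1 or back Merkel 2, 3 without back IFE 1, 7 without the library labelled back IFE 2, and 16 without paw Merkel 1 or paw Merkel 2. Over both sites 8 passed without paw IFE 1 or paw IFE 2.

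Mfng, a sugar transferase that modifies Notch receptors and alters their response to ligands, had 67.7 and 53.7 CPM in paw Merkel libraries, against 0 and 0.79 CPM in paw IFE libraries. It had 42.6 and 47.6 CPM in back Merkel libraries, against 0 and 0.42 CPM in back IFE libraries. The log2 fold change was 7.28 in the paw (SE 1.5, adjusted p = 0.015) and 7.61 at the back (SE 1.54, adjusted p = 0.00681), and it passed at both sites with each of the 8 libraries left out in turn. All its IFE counts came from paw IFE 2 and the library labelled back IFE 2, so without either one that IFE group is at 0 and the fitted log2 values, 13.07 and 12.57, depend on the model's prior. The other 2 Fringe genes did not follow: Lfng was -0.22 in the paw and -1.13 at the back (adjusted p = 0.93 and 0.468), and Rfng was 0.15 and 0.74 (adjusted p = 0.968 and 0.762).

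Among receptors and ligands outside the 10 members, Notch4 had 11.8 and 6.64 CPM in paw Merkel libraries, against 0.407 and 0.0493 CPM in paw IFE libraries. It had 11.3 and 39.1 CPM in back Merkel libraries, against 1.57 and 1.03 CPM in back IFE libraries. It was higher by 5.27 in the paw (adjusted p = 0.0403) and 4.27 at the back (adjusted p = 0.0409) on the log2 scale, calls that held in 5 of 8 fits with a library left out at each site, and were lost at the back without the library labelled back IFE 2 (adjusted p = 0.172). Dll4, a ligand best known from endothelium, had 6.24 and 9.87 CPM in back Merkel libraries. Both back IFE libraries were at 0, so Dll4 was at least 120-fold higher in back Merkel cells (adjusted p = 0.0212). This call held in 4 of 8 fits with a library left out. It was lost without back Merkel 1, back Merkel 2, back IFE 1 or the library labelled back IFE 2. In the paw Dll4 had 0.479 and 1.01 CPM in Merkel libraries, against 0.0815 and 0.197 CPM in IFE libraries (adjusted p = 0.488). The sum of 8 endothelial markers was 11.5 and 10.7 CPM in back Merkel libraries, against 3.04 and 3.89 CPM in back IFE libraries, and Pecam1 made up 8.75 and 9.97 CPM of it. Kdr ran the other way, at 0 in both back Merkel libraries, against 0.868 and 1.76 CPM in back IFE libraries. Tek overlapped, with 2.59 and 0.684 CPM in back Merkel libraries, against 0 and 1.72 CPM in back IFE libraries. Tie1 and Cldn5 were at 0 in all 8 libraries, and Cdh5 was at 0 in all but back Merkel 2, where it had 0.0977 CPM. In the paw the endothelial sum was 1.20 and 0.645 CPM in Merkel libraries, against 1.96 and 1.53 CPM in IFE libraries. The part of endothelial cells in the Notch4 and Dll4 differences was not tested.

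Dner, a Delta-like membrane protein of neurons, was at 0 in all 4 IFE libraries, at least 158-fold higher in paw Merkel cells (8.87 and 12.3 CPM; adjusted p = 0.0373) and at least 55.8-fold higher in back Merkel cells (6.62 and 0.879 CPM; adjusted p = 0.032). Dtx1, a Deltex protein that binds Notch, had 29.5 and 1.20 CPM in paw Merkel libraries, against 0.0407 and 0 CPM in paw IFE libraries (adjusted p = 0.0425). It had 13.5 and 3.13 CPM in back Merkel libraries and was at 0 in both back IFE libraries, at least 124-fold higher (adjusted p = 0.0211). The replicates of Dner at the back and of Dtx1 at both sites thus differed several-fold, and each of these calls held in 5 of 8 fits with a library left out. At the back, the fit without the library labelled back IFE 2 was among those that lost the calls of Dner and Dtx1. Dlk2, a Delta-like protein without the domain that binds Notch, ran the other way: both back Merkel libraries were at 0, against 11.6 and 7.17 CPM in back IFE libraries, at least 73.0-fold lower (adjusted p = 0.0148, called in 5 of 8 such fits). In the paw Dlk2 had 0.335 and 0.0922 CPM in Merkel libraries, against 3.63 and 6.42 CPM in IFE libraries. It did not pass in the paw but passed as lower over both sites together.

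Of the genes that passed at the back and not in the paw, Neurl1a, a ubiquitin ligase for ligands, rose by 3.56 on the log2 scale in Merkel cells (adjusted p = 0.0138, and 0.0893 without the library labelled back IFE 2), and over both sites by 2.86 (adjusted p = 0.00387). Spen, a corepressor partner of RBPJ, rose by 1.07 (adjusted p = 0.0425; called in 2 of 8 fits with a library left out). Dtx4, a further Deltex gene, fell by 6.43 at the back, with 0.228 and 0.489 CPM in back Merkel libraries, against 46.1 and 15.8 CPM in back IFE libraries (adjusted p = 0.00646; called in 8 of 8 such fits), and was at -3.77 over both sites (adjusted p = 0.00587), where the Merkel and IFE libraries overlapped. A difference between the sites was not called for any of these genes in the interaction. Neurl3, a relative of Neurl1a, fell by 6.19 on the log2 scale at the back (adjusted p = 0.0333). Its levels were 0.456 and 0 CPM in back Merkel libraries, against 29.5 and 6.11 CPM in back IFE libraries. The call was lost without back Merkel 2 or back IFE 1, at log2 fold changes of -5.27 and -4.67. The immune marker sum was 926 and 152 CPM in back IFE libraries 1 and 2, against 40 and 25.3 CPM in paw IFE libraries. In those paw IFE libraries Neurl3 had 1.34 and 1.38 CPM, and Dtx4 had 18.5 and 8.39 CPM. The part of immune cells in the Neurl3 and Dtx4 differences was not tested. Over both sites Psen2, a catalytic subunit of gamma-secretase, rose by 2.3 (adjusted p = 0.0267; called in 3 of 8 such fits). Rbpj rose by 0.91 (adjusted p = 0.0421; called in 1 of 8), with 70.4 to 102 CPM in Merkel libraries, against 31.6 to 68.6 CPM in IFE libraries. Maml2, a coactivator of the Notch-RBPJ complex, fell by 1.42 (adjusted p = 0.0181; called in 5 of 8), and the ADAM protease gene Adam17 fell by 0.99 (adjusted p = 0.0378; called in 3 of 8). Dtx3l, another Deltex gene, also passed as lower over both sites, with 0.0922 to 8 CPM in Merkel libraries, against 13.7 to 52.8 CPM in IFE libraries. The 4 inhibitors Numb, Numbl, Itch and Fbxw7 gave 0 calls in each of the 3 Merkel-IFE comparisons. Nrarp, a feedback inhibitor, was -1.49 over both sites (adjusted p = 0.105), and 79.4% of its exonic bases overlap a gene on the opposite strand.

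**Figure D5:**
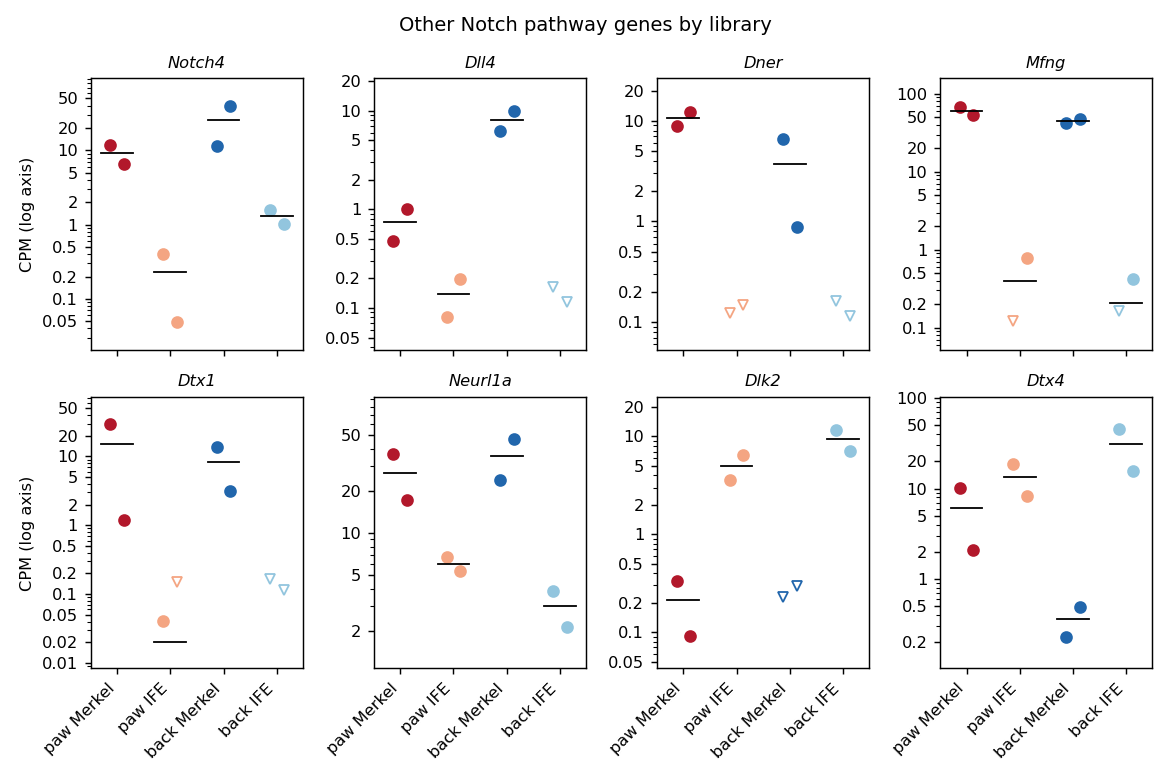
CPM of other Notch pathway genes by library (log axis, with its own range for each gene), drawn as for the members: points are libraries, lines are means of 2 libraries, and open triangles mark libraries at 0. Mfng lies between 42.6 and 67.7 CPM in the 4 Merkel libraries and at 0.79 CPM or less in the 4 IFE libraries.

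Over the 8 libraries, the genes whose log2 CPM ran most like that of Notch1 were Tep1 (r = 0.989), Chaf1b (r = 0.988) and Itgb5 (r = 0.986), among 10533 genes whose mean reached 10 CPM in some group. Those most like Hes6 were Tesc (r = 0.983), Tet1 (r = 0.971) and Slc35f3 (r = 0.969). Those most like Hes1 were Dsg1b (r = 0.983), Myc (r = 0.977) and Cldnd1 (r = 0.975), and those most like Jag1 were Ppp1r36 (r = 0.975), Bhlhe40 (r = 0.974) and Mid2 (r = 0.970). Among the members themselves, Notch1 and Notch3 had r = 0.927, Notch2 and Hes1 had r = 0.953, and Notch2 and Hes6 had r = -0.952. The libraries fall into 2 cell types, which all of these values share, so they are given as a description of 8 libraries. Dll1 stood apart from the receptors, with r of 0.110 to 0.159 to Notch1, Notch2 and Notch3.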

How the data were processed

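RNA was measured by sequencing in 8 libraries, 2 from each of 4 groups. The authors deposited whole-number counts for 24538 gene rows in each library. They also deposited FPKM values, scaled to transcript length and depth, for 24453 rows. Per the submitters' processing notes, the mm10 genome was used with Cufflinks 2.2.1, TopHat2 2.0.13, DESeq2 1.6.3 and Subread 1.4.6 (featureCounts); the annotation and the strand setting are not given in the sources used here. In R 4.3.3, counts were filtered with filterByExpr by group, which left 15151 genes, scaled by TMM, and tested with edgeR 4.0.16 (quasi-likelihood F test, 1 mean per group, 4 residual degrees of freedom) and Benjamini-Hochberg adjustment over all genes at 0.05. Steps were tested on simulated data. CPM values are TMM-scaled. Where a whole group had 0 counts, the fold is a bound against 3 counts over the group. FPKM was used to compare levels between genes.

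The 6 comparisons were Merkel against IFE in the paw, at the back and over both sites, paw against back in each cell type, and the interaction. Alternatives were DESeq2 1.42.0, RLE and upper-quartile scaling, no filter on low counts, limma 3.58.1 on log2 CPM (prior count 2) and on log2 FPKM with pseudocounts of 1 and 0.1, a replicate block, and leaving out each library; the last was also run for the pathway list, a choice made after seeing the data. The members, the pathway list and the marker lists were chosen with earlier results of these data known. A rule set which genes to name beside the members. It took up to 8 called pathway genes per comparison, by smallest adjusted p, and the 3 most correlated genes per member. Of the correlated genes, only those of Notch1, Hes6, Hes1 and Jag1 are named here, a choice that the rule did not set. Spen, Psen2, Rbpj, Maml2, Adam17, Lfng, Rfng, Nrarp and the inhibitors fall outside that rule and were chosen after their values were seen. Dtx3l was also named after its values were seen. All 8 libraries were used.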

Additional observations from a re-analysis of the deposited data

How the results depend on the processing

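Notch1 and Hes6 in the paw, Notch2 in the paw, Notch1 at the back, and Notch1, Notch2, Jag1 and Hes6 over both sites passed with each library left out in turn and under the 8 other settings. In the paw, 941 genes passed, against 2364 with DESeq2, 1920 without a filter, 572 and 607 with limma on FPKM with pseudocounts of 1 and 0.1, and 561 to 2369 with a library left out; 7 members passed with DESeq2 and 3 to 6 with a library left out. At the back, 2338 genes passed, against 4190 with DESeq2 and 1307 to 3376 with a library left out, with 1 to 5 members; 1 member, Notch1, passed without the library labelled back IFE 2. Over both sites, 3617 genes passed; 2587 to 4769 genes and 5 to 9 members passed with a library left out. For paw against back Merkel cells, 28 genes passed, against 625 with DESeq2, 452 without a filter (1 member, Notch1), 15 with limma on FPKM plus 1, and 1 to 177 with a library left out, with 0 members. For paw against back IFE cells, 0 genes passed, against 91 with DESeq2, 120 without a filter and 0 to 67 with a library left out, with 0 members. In the interaction, 0 genes passed, against 301 with DESeq2 (1 member, Hes6), 1 with RLE scaling, 305 without a filter and 0 to 41 with a library left out, with 0 members. The replicate block gave 1 gene between IFE sites and 4 in the interaction, turned Hey1 between Merkel sites to 0.94 and lost Hey1 over both sites (adjusted p = 0.0811). Same-numbered libraries did not deviate together: the 6 correlations of deviations lay between -0.0427 and 0.0845. Each group gives only 1 difference between its libraries, so whether same-numbered samples shared an animal or a batch cannot be told from these values.

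Reversed directions, all in values that had not passed, were these. Between Merkel sites, log2 fold changes on log2 CPM and on FPKM with pseudocounts of 1 and 0.1 were -0.33, -0.40 and -0.51 for Dll3 and -0.08, -0.14 and -0.27 for Hes1, and on FPKM -0.13 and -0.55 for Notch3. Dll1 over both sites was 0.02 with DESeq2 and with RLE scaling and 0.14 on FPKM with either pseudocount, and the interaction of Notch1 was 0 on FPKM plus 1. With a library left out, Dll1 ranged from -0.23 to 1.49 in the paw and from -0.57 to 0.30 over both sites. Between Merkel sites Dll1 ranged from -0.06 to 1.63, Dll3 from -1.59 to 0.83, Jag1 from -0.49 to 0.17, Hes1 from -1.56 to 1.09 and Hey1 from -3.80 to 3.74, and between IFE sites Dll3 ranged from 0 to 7.23. In the interaction Notch1 ranged from -0.34 to 0.67, Jag2 from -0.23 to 0.53, Dll3 from -7.88 to 0.08 and Hey1 from -5.13 to 2.43. The cause was not tested. Where a group is left with 1 library, that library is assumed to vary like the other groups. Dll3 and Hey1 had few counts, which limits the precision of their values.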
